A study of Homo sapiens with 6 samples.

Results

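The Notch signalling genes described here are 10 named genes: the receptors NOTCH1, NOTCH2 and NOTCH3, the ligands JAG1, JAG2 and DLL1, the targets HES1, HEY1 and NRARP, and the co-activator MAML2. They were chosen by name, with earlier results of these data known. All 10 were found among the 21676 gene symbols of the deposited count table. Their transcripts were compared between 3 libraries of the 83 cell line with overexpression of ApoD and 3 control libraries of the same line. The submitters call the line a SACC cell, an abbreviation commonly used for salivary adenoid cystic carcinoma. Apolipoprotein D is a secreted carrier of small lipids. The sources used here do not give how ApoD was introduced, what the control cells received or whether the line is 1 clone. Nothing says that the libraries came from separate cultures, so the p-values measure how far these libraries spread, which may be a technical spread.

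Notch receptors are cut in the secretory pathway by furin and are displayed on the cell surface, where ligands of the Jagged and Delta families on a neighbouring cell bind them. Binding exposes the receptor to ADAM proteases and then to gamma-secretase, and the freed intracellular domain enters the nucleus. There it joins the DNA-binding protein RBPJ and a Mastermind-like co-activator and switches on targets such as the HES and HEY repressors and NRARP. In salivary adenoid cystic carcinoma NOTCH1 is known as a gene that can carry activating mutations.

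Totals ran from 37542568 to 40416964 counts per library. APOD had 628, 528 and 625 counts in the ApoD overexpression libraries, against 9, 8 and 2 counts in the control libraries, which matches the labels. Of 7 epithelial markers 4 fell (EPCAM, KRT14, KRT19 and CDH1), while KRT8, KRT18 and KRT5, the highest of the 7, were not called. All 7 summed to 3182 to 3573 CPM (counts per 1000000 of the scaled library) with ApoD overexpression and 2746 to 3686 CPM in controls. MYB and NFIB, genes joined by fusion in adenoid cystic carcinoma, summed to 19.2 to 23.1 CPM and 21.3 to 28.1 CPM; KIT was not analysed here. The fibroblast genes COL1A2, DCN and LUM had at most 1 count in any library, while COL1A1 and COL3A1 fell and the 5 genes summed to 9.83 to 13.8 CPM with ApoD overexpression and 26.8 to 32.5 CPM in controls. Of the immune markers PTPRC and LYZ were at 0 counts in every ApoD overexpression library and at 0 to 12 in controls. CD68, also expressed outside the immune system, rose, with 36.6 to 38.5 CPM with ApoD overexpression and 15.4 to 32.7 CPM in controls (log2 fold change 0.57, edgeR adjusted p = 0.0384). Endothelial markers were low in both groups and lower with ApoD overexpression, as given below with the genes they touch. More genes were detected in controls, 18591 to 18685, than with ApoD overexpression, 17378 to 17789. Mitochondrial genes took 3.190% to 3.541% of counts with ApoD overexpression and 4.099% to 4.504% in controls, without overlap, and the part of this in the results below was not tested.

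Notch targets and the co-activator MAML2 fell with ApoD overexpression while the receptor NOTCH2 rose. HES1 had 43.3% of its control level, HEY1 46.4%, MAML2 49.6% and NRARP 64.7%, and NOTCH2 had 159%. Of the 10 genes, all tested, 2 were called higher (NOTCH2 and JAG2) and 5 lower (HES1, HEY1, NRARP, MAML2 and DLL1) at an edgeR adjusted p of 0.05, while NOTCH1, NOTCH3 and JAG1 were not called. Calls were common in this comparison: 48.8% of the 14629 tested genes were called, 24.2% higher and 24.6% lower. The 10 genes had a median log2 fold change of −0.29, beside −0.02 over the whole set tested. They were not tested as a set. In CPM, libraries of the groups did not overlap for 7 of the 10 genes, where 58.7% of all tested genes had no overlap. In such bulk libraries fewer cells of a type and less RNA per cell cannot be told apart.

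The calls differed in how much they depended on the libraries and the scaling. HES1 and MAML2 stayed called lower under all 16 alternatives run for each, including a test against a 1.5-fold change (edgeR glmTreat adjusted p = 0.00402 and 0.0167). NOTCH2 and NRARP kept their calls under all alternatives but that test, where the adjusted p was 0.325 for NOTCH2 and 0.525 for NRARP. The calls of JAG2, DLL1 and HEY1 were lost when single libraries were left out, as given with each gene. All changes below are log2 fold changes of ApoD overexpression over control ± SE, from edgeR's quasi-likelihood test.

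**Figure D1:**
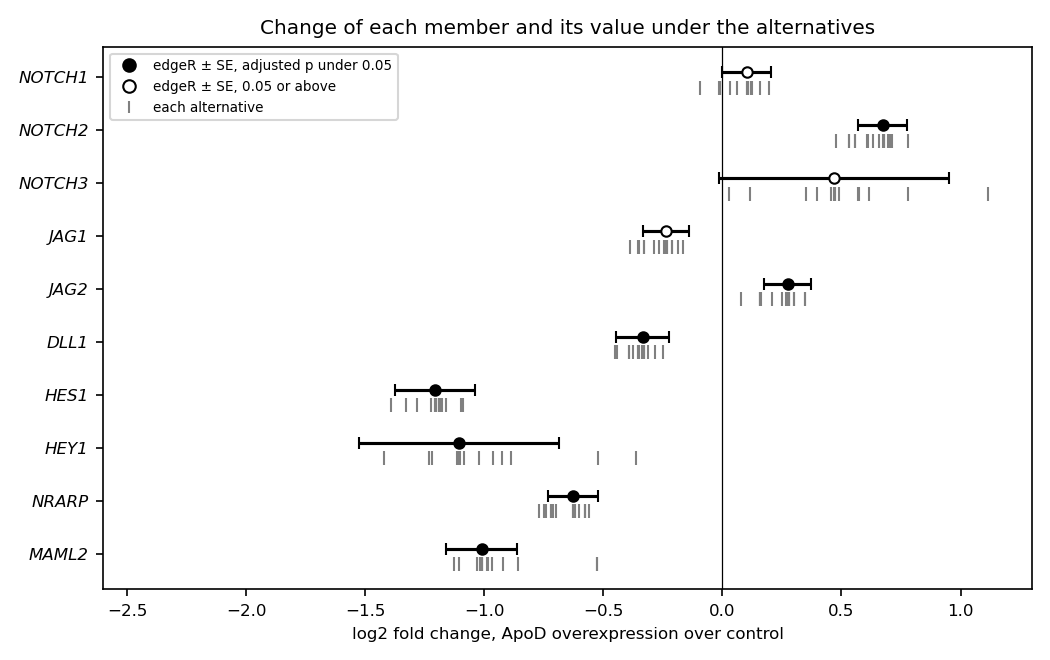
Log2 fold change of each of the 10 genes (ApoD overexpression over control; circles, edgeR ± SE; filled, adjusted p under 0.05) with grey ticks for its value under each alternative. Every gene but NOTCH1 keeps to its side of 0 under every alternative, called or not, while the ticks of NOTCH1 fall on both sides of 0.

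NOTCH2 was the receptor that rose. Its level was 264, 253 and 289 CPM with ApoD overexpression, against 191, 165 and 149.9 CPM in controls. Every ApoD overexpression library lay above every control library. The mean was 269 ± 18.5 CPM with ApoD overexpression and 169 ± 20.9 CPM in controls (SD, n = 3 each; log2 fold change 0.67 ± 0.10, edgeR adjusted p = 0.000278). Of all tested genes 90.7% had a lower log2 fold change. NOTCH2 has near-identical partial copies in the human genome, and the authors' counting could split reads among them. The copies NOTCH2NLA, NOTCH2NLB, NOTCH2NLC and NOTCH2NLR summed to 419, 405 and 331 counts with ApoD overexpression and 485, 737 and 477 counts in controls. NOTCH2 itself had 10407, 8999 and 11088 counts and 7717, 6767 and 6208 counts in the same libraries. With the copies added to it, an alternative chosen after seeing the data, NOTCH2 still rose (log2 fold change 0.61, edgeR adjusted p = 0.000424).

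NOTCH1, the receptor with the highest level per length, showed no such difference. Its level was 287, 288 and 323 CPM with ApoD overexpression, against 312, 279.5 and 245 CPM in controls. The groups overlapped, with control replicate 1 inside the range of the ApoD overexpression libraries. The log2 fold change was 0.10 ± 0.10 (edgeR adjusted p = 0.443), and it turned slightly negative, −0.01, when libraries were scaled by their totals alone.

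NOTCH3 was close to the limit of detection. It had 39, 26 and 35 counts with ApoD overexpression and 11, 36 and 31 counts in controls, and the groups overlapped. Its log2 fold change of 0.47 ± 0.48 was smaller than its error (edgeR adjusted p = 0.447), so a difference in NOTCH3 was not detectable at this depth. With each library's abundance trend removed the log2 fold change was 1.11 (edgeR adjusted p = 0.0703). NOTCH3 was not called under any alternative.

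The balance of the receptor transcripts can be read within each library, where no scaling between libraries enters. Of the FPKM (counts scaled by gene length and library total) summed over the 3 receptors, NOTCH2 made up 42.7%, 41.6% and 42.0% with ApoD overexpression, against 33.2%, 32.4% and 33.1% in controls. NOTCH1 made up 57.7% ± 0.563 with ApoD overexpression and 66.9% ± 0.401 in controls (SD, n = 3 each), and NOTCH3 under 0.234% in every library. The ratio of NOTCH1 to NOTCH2 was 1.34, 1.40 and 1.38 with ApoD overexpression and 2.01, 2.08 and 2.02 in controls. The groups were far apart against a spread of 0.0307 and 0.0406 (SD), and NOTCH1 stayed the more abundant receptor in all 6 libraries.

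**Figure D2:**
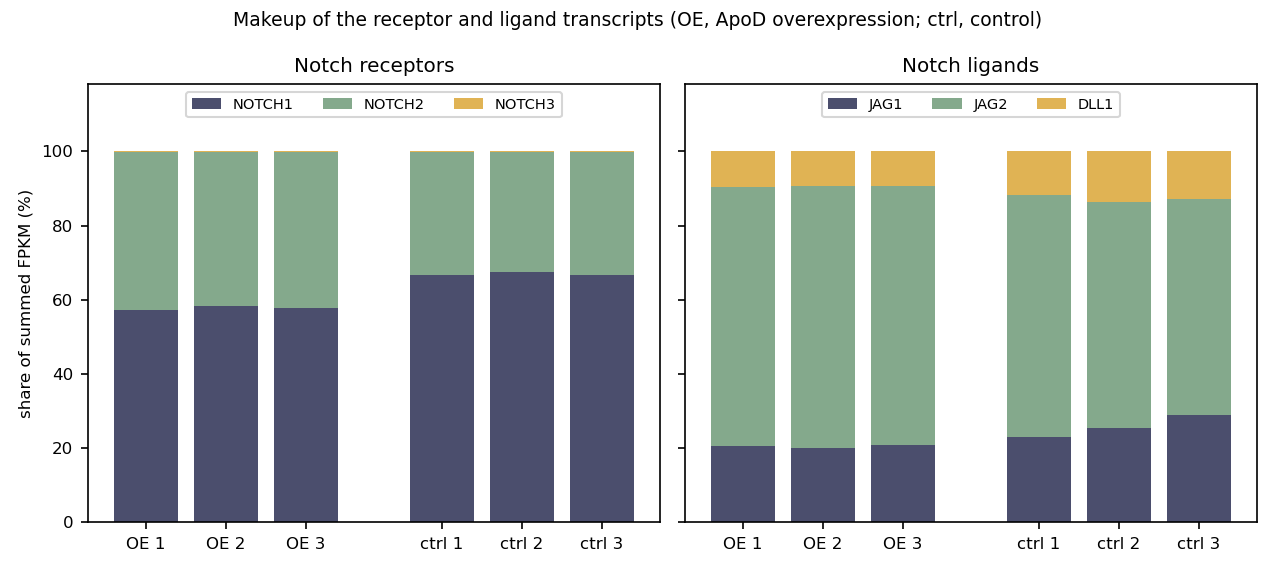
Share of the summed FPKM (%) taken by each receptor (left) and each ligand (right) in each library, with ApoD overexpression (OE) left of control (ctrl). NOTCH2 takes 41.6% to 42.7% of the receptor level in the ApoD overexpression libraries and 32.4% to 33.2% in controls; NOTCH3 is too low to be seen.

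Among the ligands, JAG2 stood per length above JAG1 and DLL1 in every library, and its lead was wider with ApoD overexpression. JAG2 and JAG1 encode the Jagged ligands. JAG2 had 238, 261 and 265 CPM with ApoD overexpression, against 228, 218 and 186 CPM in controls. The groups did not overlap in CPM, but the gap between the nearest libraries was small. In FPKM they overlapped, with 40.2 in ApoD overexpression replicate 1 and 40.4 in control replicate 1. JAG2 rose by 0.27 ± 0.10 on the log2 scale (edgeR adjusted p = 0.0359). The adjusted p was 0.0755 without control replicate 2, 0.161 without control replicate 3, 0.0762 without ApoD overexpression replicate 2 and 0.112 without ApoD overexpression replicate 3. It also missed the threshold with scaling by library totals (0.156), with each library's abundance trend removed (log2 fold change 0.08, 0.485) and with limma in all 3 FPKM forms (0.138, 0.139 and 0.174).

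JAG1 had 72.0, 76.8 and 82.2 CPM with ApoD overexpression, against 83.1, 93.7 and 95.4 CPM in controls. All ApoD overexpression libraries lay below all controls, the nearest by less than 1 CPM. The log2 fold change of −0.24 ± 0.10 missed the threshold (edgeR adjusted p = 0.0571). It passed with scaling by library totals (log2 fold change −0.36, adjusted p = 0.0104), after removal of the abundance trend (−0.39, 0.00661), without control replicate 1 (−0.29, 0.0322) and with limma in all 3 FPKM forms (0.0125, 0.0126 and 0.0296).

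DLL1, a Delta-like ligand, fell. It had 21.8, 22.5 and 23.6 CPM with ApoD overexpression, against 26.7, 31.8 and 27.2 CPM in controls, with no overlap. The log2 fold change was −0.33 ± 0.11 (edgeR adjusted p = 0.0242), and the adjusted p was 0.138 without control replicate 2, 0.0931 without ApoD overexpression replicate 1 and 0.0643 without ApoD overexpression replicate 3. In GENCODE release 29 the gene FAM120B overlaps DLL1 on the other strand. FAM120B had 1992, 1559 and 2053 counts with ApoD overexpression and 2385, 2524 and 2216 counts in controls, and without a stated strand setting reads in the shared stretch cannot be assigned.

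Within each library JAG2 took 69.8%, 70.6% and 69.6% of the FPKM summed over the 3 ligands with ApoD overexpression, against 65.3%, 60.9% and 58.1% in controls. The ratio of JAG2 to JAG1 was 3.40, 3.50 and 3.32 with ApoD overexpression and 2.83, 2.39 and 2.01 in controls. The groups did not overlap in either measure, which follows from the CPM of JAG2, JAG1 and DLL1, each without overlap. The controls were more spread out than the ApoD overexpression libraries. DLL1 took 9.49% ± 0.239 with ApoD overexpression and 12.7% ± 0.987 in controls (SD, n = 3 each).

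HES1, a transcriptional repressor and a widely used readout of Notch signalling, showed the largest fall of the 10 genes. Its level was 14.2, 12.7 and 14.4 CPM with ApoD overexpression, against 22.9, 36.2 and 36.2 CPM in controls. The ApoD overexpression libraries lay close together and below all controls, and control replicate 1 lay nearest to them. The mean was 13.8 ± 0.945 CPM with ApoD overexpression and 31.8 ± 7.72 CPM in controls (SD, n = 3 each; log2 fold change −1.21 ± 0.17, edgeR adjusted p = 0.000118). Without control replicate 1 the log2 fold change was −1.39 (adjusted p = 1.87e-07). Of all tested genes 10.4% had a lower log2 fold change.

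NRARP, an ankyrin repeat protein that is induced by Notch and dampens its signal, also fell. It had 57.4, 67.2 and 58.4 CPM with ApoD overexpression, against 83.5, 100.4 and 98.7 CPM in controls. No library of one group reached the other, and control replicate 1 was again the lowest control. NRARP had a log2 fold change of −0.63 ± 0.11 (edgeR adjusted p = 0.000452), which ran from −0.77 to −0.56 over the alternatives. The ratio of NRARP to HES1 in FPKM was 2.41, 3.16 and 2.42 with ApoD overexpression and 2.18, 1.65 and 1.63 in controls, and the groups did not overlap.

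HEY1, a repressor related to HES1, was rare. It had 24, 26 and 33 counts with ApoD overexpression and 32, 83 and 80 counts in controls. Control replicate 1 lay among the ApoD overexpression libraries, so the groups overlapped. HEY1 had a log2 fold change of −1.11 ± 0.42 (edgeR adjusted p = 0.0451). The adjusted p was 0.179 without control replicate 2, 0.151 without control replicate 3, and 0.120, 0.0914 and 0.0621 without ApoD overexpression replicate 1, 2 and 3. It also missed the threshold with the abundance trend removed (log2 fold change −0.52, adjusted p = 0.318) and with limma on unfiltered log2(FPKM + 1) (−0.36, 0.105). Without control replicate 1 it was −1.42 (adjusted p = 0.00683).

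**Figure D3:**
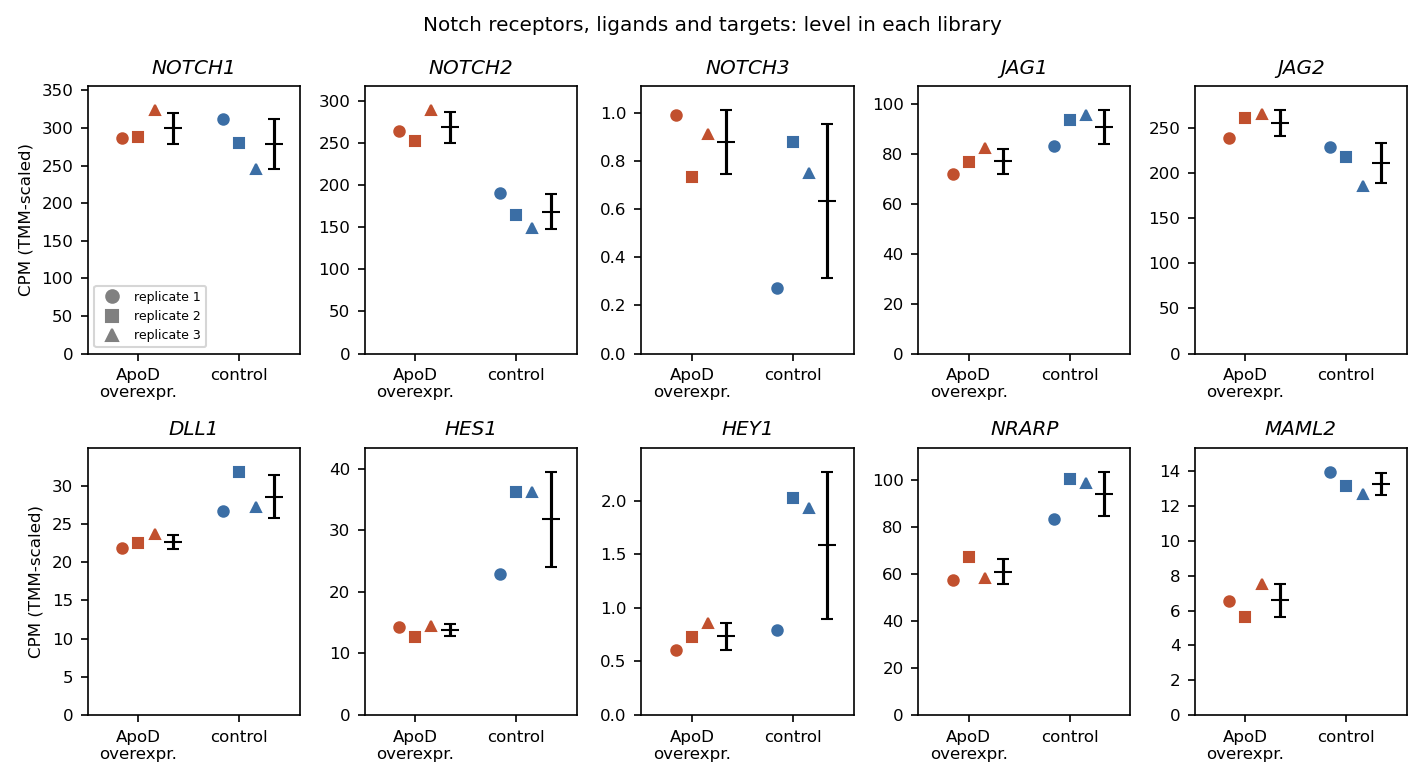
Level of each of the 10 genes (CPM, TMM-scaled, axes from 0) in each library, ApoD overexpression left of control; symbols mark the replicate, and the black bar is the mean ± SD of 3 libraries. NOTCH2 is higher and HES1, NRARP and MAML2 are lower in all ApoD overexpression libraries, and control replicate 1 of HES1, at 22.9 CPM, lies below the other controls at 36.2 CPM.

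RBPJ, the DNA-binding partner of the Notch intracellular domain, recognises the core TGGGAA. The promoters of HES1, NRARP and HES4, a relative of HES1, are shown as examples. HES1 and NRARP fell under every scaling, as did HES2 and HES6, whose promoters are not shown. The call of HES4 depended on the scaling. Windows from 250 bases before to 50 bases after the start were taken from RefSeq (GRCh38.p14) for 8 of the 10 genes, without DLL1 and HEY1, and searched on both strands for TGGGAA or its reverse complement TTCCCA. HES1 was the only one of the 8 with a match. Its window held 2 matches on the gene's strand, beginning 84 and 70 bases before the start, in a stretch known to bind RBPJ. Of 35116 windows of the same length in the table, 24% held at least 1 match and 3.8% at least 2. The longer form GTGGGAA, which contains TGGGAA, or its reverse complement TTCCCAC was in 6.25% of windows and occurred once each in those of HES1 and HES4. The windows of HES2, HES6 and HES7 were also searched and held no match to TGGGAA, although HES2 and HES6 fell, as given below. The windows of HES1 (chr3:194135898-194136197, plus strand), NRARP (chr9:137302222-137302521, minus strand) and HES4 (chr1:1000048-1000347, minus strand) read as follows, 5′ to 3′ on the gene's strand, with TGGGAA in capitals.
HES1: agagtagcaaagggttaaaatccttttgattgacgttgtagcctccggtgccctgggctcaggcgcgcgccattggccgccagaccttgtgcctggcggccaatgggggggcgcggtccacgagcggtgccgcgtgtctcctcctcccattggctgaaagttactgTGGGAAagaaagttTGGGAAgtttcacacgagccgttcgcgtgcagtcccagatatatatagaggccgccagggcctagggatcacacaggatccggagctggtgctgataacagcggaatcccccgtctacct
NRARP: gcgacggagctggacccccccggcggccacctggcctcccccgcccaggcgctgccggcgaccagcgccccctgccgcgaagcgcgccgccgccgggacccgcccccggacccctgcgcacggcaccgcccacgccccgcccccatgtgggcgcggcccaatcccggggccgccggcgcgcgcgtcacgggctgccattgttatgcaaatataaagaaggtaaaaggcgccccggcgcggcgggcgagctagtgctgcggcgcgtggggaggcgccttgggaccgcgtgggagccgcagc
HES4: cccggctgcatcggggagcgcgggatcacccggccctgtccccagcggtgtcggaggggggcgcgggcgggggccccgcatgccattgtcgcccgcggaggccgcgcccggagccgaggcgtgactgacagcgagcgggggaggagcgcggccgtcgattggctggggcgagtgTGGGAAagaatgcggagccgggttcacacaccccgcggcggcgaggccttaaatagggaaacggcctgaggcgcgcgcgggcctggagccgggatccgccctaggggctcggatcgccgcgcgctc

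The single match of HES4 began 76 bases before its start, between the positions of the 2 matches in HES1. HES4 had 26.9, 29.7 and 26.2 CPM with ApoD overexpression, against 33.3, 29.7 and 36.5 CPM in controls, and the groups just overlapped at replicate 2. Its log2 fold change of −0.26 ± 0.11 missed the threshold (edgeR adjusted p = 0.0685), but it passed with scaling by library totals (−0.38, adjusted p = 0.0171), after removal of the abundance trend (−0.31, 0.0431), without ApoD overexpression replicate 2 (−0.33, 0.0434) and with limma in all 3 FPKM forms (0.0126, 0.0128 and 0.0371). The NRARP window held no match, although NRARP fell. A match is a description of the letters only.

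Of the other HES and HEY genes, HES2 and HES6 fell and HES7 rose, and HEY2 was not called. HES2 had 16.7, 10.7 and 14.6 CPM with ApoD overexpression, against 36.7, 46.2 and 43.9 CPM in controls (log2 fold change −1.59 ± 0.16, edgeR adjusted p = 1.29e-05). HES6, which is known to oppose HES1, had 1.47, 1.83 and 2.69 CPM, against 4.78, 4.76 and 5.02 CPM in controls (log2 fold change −1.28 ± 0.25, adjusted p = 0.00129). The groups stood clearly apart for both genes. HES7, an oscillating gene of somite formation in the embryo, had 19.5, 23.4 and 23.6 CPM with ApoD overexpression, against 16.9, 11.3 and 15.0 CPM in controls (log2 fold change 0.63 ± 0.15, adjusted p = 0.00511; 0.0688 with limma on unfiltered FPKM). HEY2 had 17, 13 and 3 counts with ApoD overexpression and 8, 15 and 3 counts in controls, and HEYL at most 2 counts in any library.

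The FPKM summed over 8 HES and HEY genes was 32.9 ± 0.630 with ApoD overexpression and 57.9 ± 7.45 in controls (SD, n = 3 each). HES1 took 26.7%, 23.5% and 26.1% of that sum with ApoD overexpression, against 29.6%, 40.5% and 37.7% in controls, and no library of one group reached the other. HES4 took 41.9% ± 3.18 with ApoD overexpression and 31.3% ± 4.09 in controls. By mean FPKM HES1 led the family in controls, and HES4 led it with ApoD overexpression; in control replicate 1 HES4 already took 35.4%.

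MAML2, a Mastermind-like co-activator of the Notch complex, fell to about the same degree as HES1. In mucoepidermoid carcinoma, another salivary gland tumour, MAML2 is known as the fusion partner of CRTC1, and a count per gene does not separate parts of the transcript. MAML2 had 259, 200 and 289 counts with ApoD overexpression, against 564, 540 and 525 counts in controls. In CPM these were 6.58, 5.63 and 7.54, against 13.98, 13.2 and 12.7. The controls lay close together, and control replicate 1 was the highest of them, unlike in HES1 and NRARP. The log2 fold change was −1.01 ± 0.15 (edgeR adjusted p = 0.000202). On log2(FPKM + 1) it was −0.53, at a level near 1 FPKM where that scale understates a change.

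Its relative MAML3 fell further from a lower level, and MAML1 was not called. MAML3 had 28, 39 and 17 counts with ApoD overexpression, against 78, 122 and 110 counts in controls (log2 fold change −1.75 ± 0.37, edgeR adjusted p = 0.00219). MAML1 had 65.2, 74.5 and 78.8 CPM with ApoD overexpression, against 67.5, 63.4 and 51.1 CPM in controls (log2 fold change 0.26 ± 0.12, adjusted p = 0.0832). Per length MAML1 was by far the most abundant of the 3. It made up 94.6% ± 0.475 of their summed FPKM with ApoD overexpression and 86.7% ± 1.57 in controls (SD, n = 3 each), and MAML2 made up 4.60% ± 0.660 and 10.3% ± 0.907. The sum itself was 12.9 ± 1.07 FPKM with ApoD overexpression and 12.6 ± 1.31 FPKM in controls, a difference within the spread.

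**Figure D4:**
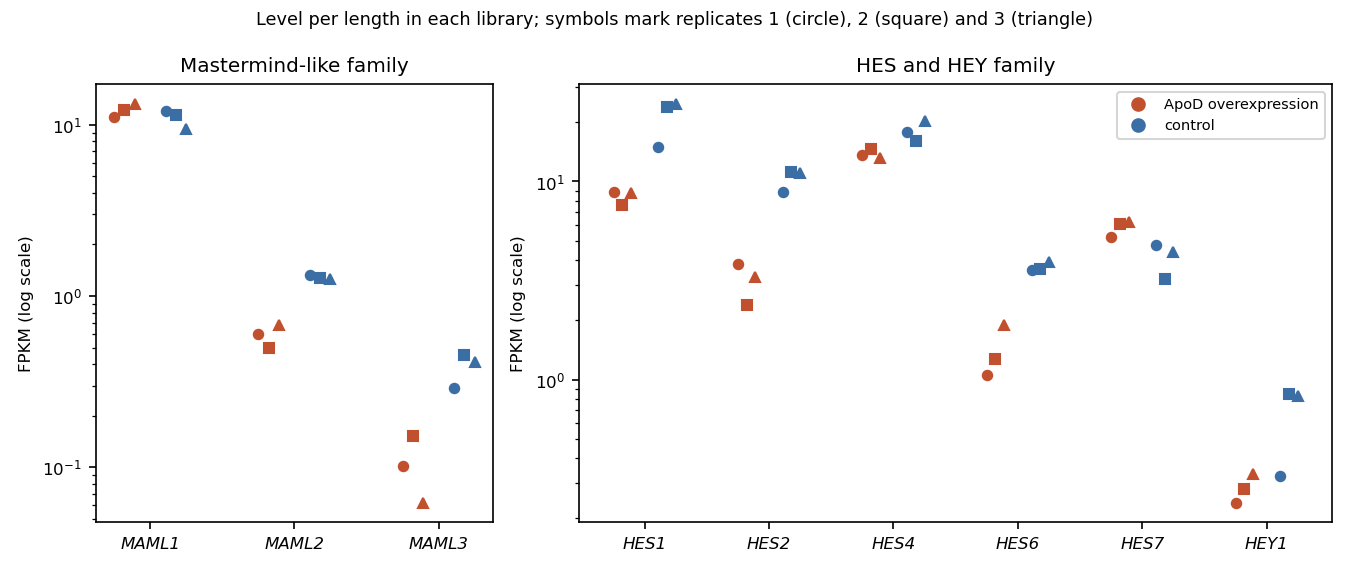
FPKM (log axis) of the Mastermind-like genes (left) and of HES and HEY genes (right) in each library, ApoD overexpression left of control for each gene. MAML2 and MAML3 are lower in all ApoD overexpression libraries beside an abundant MAML1, and HES1, HES2 and HES6 are lower while HES7 is higher.

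Ordered by mean FPKM, the 10 genes ran in the ApoD overexpression libraries from JAG2 (40.2 to 44.0) through NOTCH1 (28.5 to 32.4), NRARP (21.2 to 24.1), NOTCH2 (20.3 to 23.6), JAG1 (11.8 to 13.3), HES1 (7.61 to 8.80), DLL1 (5.62 to 5.99), MAML2 (0.497 to 0.675) and HEY1 (0.239 to 0.333) to NOTCH3 (0.0798 to 0.111). NRARP and NOTCH2 were the only neighbours in that order whose ranges overlapped. In controls the order began with JAG2 (34.3 to 40.4), NRARP (32.3 to 39.8) and NOTCH1 (27.3 to 33.4), followed by HES1 (14.8 to 24.5), JAG1 (14.3 to 17.1) and NOTCH2 (13.6 to 16.6). Neighbours overlapped within each of these trios. DLL1 (7.22 to 8.69), MAML2 (1.26 to 1.33), HEY1 (0.327 to 0.845) and NOTCH3 (0.0321 to 0.105) closed the order without overlap. FPKM values are scaled by library totals. With that scaling the median change over all genes in the test was −0.13 (log2), where TMM gave −0.02.

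Beyond the 10 genes, a list of 66 pathway genes arranged by role had 60 tested members, of which 11 rose and 20 fell. Their median log2 fold change was −0.14. The share called, 31 of 60, was near the 48.8% of all tested genes, and the balance of rises and falls moved with the scaling: 8 rose and 28 fell when libraries were scaled by their totals. The counts by role below stand beside 24.2% called higher and 24.6% called lower over all tested genes. No role was tested as a set. HES5 and DTX1 were not analysed here.

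**Figure D5:**
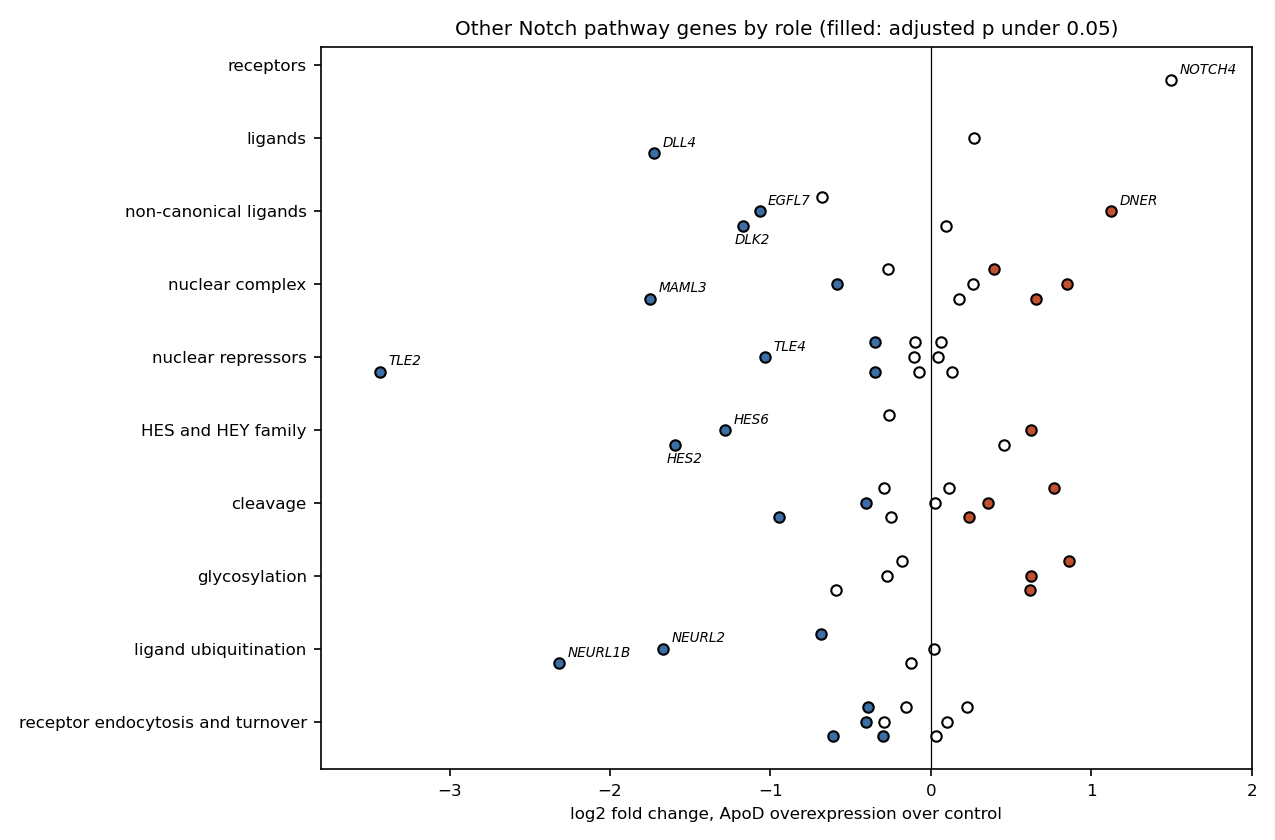
Log2 fold change (ApoD overexpression over control) of the 60 tested pathway genes outside the 10, in rows by role; filled circles have an edgeR adjusted p under 0.05 (red, higher; blue, lower). The 3 called genes of receptor glycosylation lie above 0. The 3 called genes of ligand ubiquitination and the 4 called nuclear repressors lie below 0. Of all tested genes 24.2% were called higher and 24.6% lower, and the roles were not tested as sets.

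NOTCH4, DLL3 and DLL4, the remaining receptor and canonical ligands, had at most 115 counts in any library. NOTCH4 had 17, 11 and 25 counts with ApoD overexpression and 5, 11 and 4 counts in controls (log2 fold change 1.496 ± 0.615, edgeR adjusted p = 0.0617). Once the abundance trend of each library was removed, it passed (2.31, adjusted p = 0.00832). DLL3 had 44, 94 and 115 counts and 64, 71 and 95 counts, and was not called. DLL4 had 8, 3 and 5 counts with ApoD overexpression and 16, 13 and 29 counts in controls (log2 fold change −1.72 ± 0.62, edgeR adjusted p = 0.0358). For DLL4 the adjusted p was 0.190 without control replicate 3, 0.114 and 0.103 without ApoD overexpression replicate 2 and 3, 0.0538 by the DESeq2 Wald test and 0.0910 with no low-count filter. Once the abundance trend was removed, DLL4 was at −0.91 (log2, adjusted p = 0.245).

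Of the non-canonical ligands, which lack parts of the usual receptor-binding region or act in other ways, 5 of 7 were tested, 1 rose and 2 fell. EGFL7, a secreted protein best known from endothelium, had 73.1, 67.5 and 59.1 CPM with ApoD overexpression, against 112, 149.8 and 156 CPM in controls (log2 fold change −1.07 ± 0.13, edgeR adjusted p = 4.90e-05). DLK2, a Delta-like protein that can restrain Notch, had 13.1, 17.1 and 13.7 CPM, against 34.3, 32.4 and 32.0 CPM in controls (log2 fold change −1.17 ± 0.12, adjusted p = 1.96e-05). DNER, a neuronal transmembrane protein, had 89, 88 and 125 counts, against 47, 56 and 47 counts in controls (log2 fold change 1.12 ± 0.28, adjusted p = 0.00627). DLL4, NOTCH4 and EGFL7 are also endothelial genes. The 4 endothelial markers analysed summed to 1.35 to 2.30 CPM with ApoD overexpression and 8.11 to 13.4 CPM in controls, the 3 tested ones (PECAM1, CDH5 and VWF) all fell, and TEK was at 0 in every ApoD overexpression library; their part in these results was not tested.

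In the nuclear complex 3 of 8 genes rose and 2 fell. RBPJ itself had 72.4, 47.6 and 67.8 CPM with ApoD overexpression, against 71.5, 80.6 and 74.1 CPM in controls; it was not called (log2 fold change −0.27 ± 0.14, edgeR adjusted p = 0.126). The histone acetyltransferases CREBBP and KAT2A rose, with log2 fold changes of 0.85 ± 0.16 and 0.65 ± 0.09 (adjusted p = 0.000866 and 0.000155). The related KAT2B fell, with −0.58 ± 0.14 (adjusted p = 0.00442). RBPJ and KAT2B were named after seeing their values. The ratio of KAT2A to KAT2B in FPKM was 11.3, 18.4 and 14.3 with ApoD overexpression and 6.91, 5.38 and 5.91 in controls. Its lack of overlap follows from the libraries of each gene, which already stood apart in opposite directions.

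Of 10 nuclear repressors 4 fell and 0 rose. Among the TLE genes, Groucho-type corepressors that HES proteins recruit, TLE2, TLE3 and TLE4 fell and TLE1 did not pass (log2 fold change −0.10 ± 0.12, edgeR adjusted p = 0.517). TLE2 had the largest fall on the pathway list, with 0.863, 1.21 and 0.652 CPM with ApoD overexpression, against 7.41, 10.6 and 11.4 CPM in controls (log2 fold change −3.43 ± 0.27, adjusted p = 2.62e-06). TLE4 and TLE3 fell, with −1.04 ± 0.31 and −0.35 ± 0.09 (adjusted p = 0.0146 and 0.00737); the TLE4 call was lost with the abundance trend removed (−0.53, 0.171). TLE2 took 1.62% ± 0.523 of the FPKM summed over the family with ApoD overexpression and 13.2% ± 3.50 in controls (SD, n = 3 each).

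Among 9 genes of receptor cleavage (furin, the ADAM proteases and the subunits of gamma-secretase) 3 rose and 2 fell. PSEN2, a catalytic subunit of gamma-secretase, had 37.7, 43.5 and 43.7 CPM with ApoD overexpression, against 28.9, 23.0 and 21.5 CPM in controls (log2 fold change 0.77 ± 0.13, edgeR adjusted p = 0.000422). APH1B, another subunit, fell (log2 fold change −0.94 ± 0.32, adjusted p = 0.0264), a call lost without control replicate 2 (0.111) or ApoD overexpression replicate 3 (0.109) and after removal of the abundance trend (−0.45, 0.269).

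Of 6 enzymes that put sugars on Notch receptors 3 rose and 0 fell. POFUT1, which adds O-fucose to the EGF repeats, had 292, 325 and 320.1 CPM with ApoD overexpression, against 191, 163 and 163 CPM in controls (log2 fold change 0.86 ± 0.10, edgeR adjusted p = 2.82e-05). POGLUT1, which adds O-glucose there, rose by 0.62 ± 0.11 (adjusted p = 0.000752). EOGT, which adds O-linked N-acetylglucosamine, rose by 0.62 ± 0.22 (adjusted p = 0.0325), but not when control replicate 2 (0.105), control replicate 3 (0.0764), ApoD overexpression replicate 2 (0.0653) or ApoD overexpression replicate 3 (0.128) was left out, nor with library totals (0.0725) or limma on unfiltered FPKM (0.21 on its log2 scale, 0.0862). The Fringe enzymes LFNG, MFNG and RFNG, which extend O-fucose, did not pass: LFNG was at −0.18 ± 0.11 (log2), MFNG at −0.59 ± 0.33 and RFNG at −0.27 ± 0.11. They were named after seeing their values.

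Of 5 ubiquitin ligases and relatives that act on ligands, 3 fell and 0 rose. NEURL1B, a Neuralized-type ligase, had 4.62, 3.74 and 3.73 CPM with ApoD overexpression, against 14.6, 22.8 and 23.0 CPM in controls (log2 fold change −2.32 ± 0.19, edgeR adjusted p = 4.27e-06). MIB1, the ligase that Delta and Jagged ligands need for endocytosis, had 50.1, 29.4 and 39.1 CPM, against 58.8, 59.7 and 72.1 CPM in controls (log2 fold change −0.68 ± 0.16, adjusted p = 0.00441). NEURL2 had 11, 4 and 2 counts, against 19, 23 and 17 counts in controls (log2 fold change −1.67 ± 0.64, adjusted p = 0.0473). The NEURL2 call was lost when any library but ApoD overexpression replicate 1 was left out, with an adjusted p of 0.0777, 0.141 and 0.0813 without control replicate 1, 2 and 3, and 0.131 and 0.179 without ApoD overexpression replicate 2 and 3. It was also lost after removal of the abundance trend (log2 fold change −0.87, 0.283), by the DESeq2 Wald test (0.0646) and with no low-count filter (0.101). Without ApoD overexpression replicate 1 its log2 fold change was −2.48.

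Among genes of receptor endocytosis and turnover 4 of 9 tested fell and 0 rose. DTX2, a Deltex ligase that binds the receptor's intracellular part, had 31.4, 33.3 and 33.1 CPM with ApoD overexpression, against 45.7, 53.5 and 49.7 CPM in controls (log2 fold change −0.61 ± 0.10, edgeR adjusted p = 0.000382). The ligases ITCH and NEDD4 fell, with log2 fold changes of −0.40 ± 0.12 and −0.39 ± 0.13 (adjusted p = 0.0131 and 0.0263), and the NEDD4 call was lost without control replicate 2 (0.0727) and with limma on unfiltered FPKM (0.0567). FBXW7, which marks the intracellular domain for breakdown, was at 0.23 ± 0.14 (log2) and did not pass; it was named after seeing its value.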

How the data were processed

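RNA was sequenced from 3 ApoD overexpression and 3 control libraries of the 83 cell line, made with a SMARTER mRNA-Seq kit per the labels' protocols. Aligner, counter, strand setting and build: not given in the sources used here. The authors deposited whole-number counts per gene symbol and FPKM values. All 108650 FPKM values above 0 equalled the count divided by the library total and by 1 whole-number length per gene (relative tolerance 1e-06).

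edgeR 4.0.16 under R 4.3.3 (glmQLFit and glmQLFTest) was run on the counts of all genes kept by filterByExpr (minimum count 10), with TMM scaling, two-sided, Benjamini-Hochberg adjustment over all tested genes and a threshold of 0.05. Each SE is the size of the log2 fold change over the square root of its F. CPM are counts per 1000000 of the TMM-scaled library. The test was tried first on simulated counts with few changed genes and no abundance trend. That trial cannot show how the calls here depend on the scaling. Ratios and shares within libraries are descriptions without a test.

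Alternatives were DESeq2 size factors, the Wald test of DESeq2 1.42.0, library totals, removal of each library's abundance trend by loess, no low-count filter, a replicate block, glmTreat against 1.5-fold, limma 3.58.1 on log2(FPKM + 1) or log2(FPKM + 0.1), with at least 1 FPKM in 3 libraries or unfiltered, and leaving out each library. The sum of NOTCH2 with its copies was added after seeing the data. Named were the 10 genes, every tested pathway gene among receptors, ligands and HES or HEY genes, and in other roles the up to 3 called genes with the largest change; 1 of these is not reported here. The 10 genes, the lists and the tests were chosen with earlier results of these data known. Counting error bears most on genes with under 100 counts.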

Additional observations from a re-analysis of the deposited data

How the results depend on the processing

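Of the 10 genes 2 were called higher and 5 lower. With library totals alone, with the abundance trend removed and on FPKM in all 3 forms, 1 was called higher. HEY1 and NOTCH3 did not pass the FPKM filter and have no value in the filtered forms. Against a 1.5-fold change 0 were called higher and 2 lower. When each library was left out, 1 to 2 were called higher and 3 to 6 lower. Of the other pathway genes 11 rose and 20 fell; against a 1.5-fold change 1 rose and 7 fell, and on FPKM in all 3 forms 7 rose. Of all tested genes 3539 rose and 3601 fell; against a 1.5-fold change 545 rose and 1430 fell, on unfiltered FPKM 2317 rose, and with library totals 2580 rose and 4435 fell, so that 36.8% of calls were higher against 49.6% with TMM. On unfiltered FPKM that share was 37.0%, and against a 1.5-fold change 27.6%. The log2 fold change of NOTCH1, not called, was −0.0136 with library totals, −0.0946 with the abundance trend removed, −0.0105 on log2(FPKM + 1), filtered or not, and −0.0108 on log2(FPKM + 0.1). The causes of these shifts were not tested.

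The replicate number as a block left 1 of the 10 genes called higher and 3 lower, with JAG2 (adjusted p = 0.0759), DLL1 (0.0541) and HEY1 (0.0680) no longer called, and 9 of the other pathway genes called higher and 16 lower. Same-numbered libraries did not deviate together (correlations −0.12, −0.01 and −0.04), so the numbers are not shown to pair the libraries. APOD kept its call under every alternative. NOTCH3, HEY1, NOTCH4, DLL4, NEURL2, TLE4 and HEY2, with under 100 counts per library, are limited by depth.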

Other observations

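Control replicate 1 stood nearest to the ApoD overexpression libraries on the first principal component of all tested genes, at −36.9, beside 42.8, 60.2 and 54.6 for the ApoD overexpression libraries. The other controls lay at −61.0 and −59.7. Its levels of the Notch genes followed that place in part. HEY1 in control replicate 1 had 40.1% of the mean of the other controls, HES1 63.1%, NRARP 83.8% and JAG1 87.9%, while NOTCH2 had 121% and JAG2 113%. DLL1 had 90.5%, and NOTCH1, which was not called, had 119%. MAML2 went against that order, with 108% in control replicate 1 beside a fall with ApoD overexpression, and NOTCH3 had 33.5%. Among the other pathway genes NEURL1B in control replicate 1 had 14.6 CPM, against 22.8 and 23.0 CPM in the other controls, and TLE2 had 7.41 CPM, against 10.6 and 11.4 CPM. CREBBP had 79.2 CPM there, against 57.5 and 49.0 CPM. HES2 had 36.7 CPM, against 46.2 and 43.9 CPM. DLK2 and TLE3, which fell with ApoD overexpression, went against that order. DLK2 had 34.3 CPM in control replicate 1, against 32.4 and 32.0 CPM, and TLE3 had 72.5 CPM, against 64.2 and 68.2 CPM. These pathway genes are examples, and how many of the list went each way was not counted. What sets control replicate 1 apart is not given in the sources used here.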
